A study of Mus musculus with 10 samples.

Results

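Neocortex taken at E12.5, where E stands for embryonic day, was compared with neocortex taken on the day of birth (P0), the first and last of the stages sampled, in wild-type mice of the CD1 strain at both ages. CD1 is an outbred laboratory strain, and no animal carried a labelled mutation or treatment. The comparison used 4 of 10 libraries, 2 at E12.5 and 2 at P0. It covered the 6048 of 6147 deposited genes that averaged 1 TPM or more across the 10 libraries, a choice that used the level of a gene and not its change, and 99 genes fell below that level. TPM is a length-corrected share of all transcripts in a library, scaled to a fixed total, so levels of different genes can be set side by side. Each library was made from polyadenylated RNA of frozen whole neocortex, and the other 6 libraries, 2 each from E14, E15.5 and E17, entered through the shared estimate of spread and as intermediate time points. The series describes the duplicates as biological, but the labels give neither sex, litter, pooling nor batch, so p-values measure the spread between these libraries only. Read totals are unstated in the sources used here, so the depth is unknown.

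At the earlier age the wall of the cortex is mostly ventricular zone, where radial glia, the stem cells of the cortex, divide and give rise to intermediate progenitors and the first neurons. By birth most cells have left the cell cycle, excitatory neurons have settled in layers and extend axons, and astrocytes have begun to form. Many protein families have a member used in most dividing cells and another used in neurons. A textbook case is the BAF chromatin remodeller, which exchanges the subunit ACTL6A for ACTL6B when a progenitor leaves the cell cycle.

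Change between the first and last stage reached most of the table. In limma's moderated test on log2(TPM + 1), with Benjamini-Hochberg adjustment over all genes and a threshold of 0.05, 1641 genes were higher at P0 (27.1% of those tested) and 3087 were lower (51%), together 78.2%. In 90.9% of the genes tested the libraries of the ages did not overlap. Changes of at least 1 on the log2 scale, about a doubling or halving, were found in 672 genes (11.1%) in the upward direction and 1210 (20%) in the downward direction. The median change over all genes was -0.27, on a scale whose total is fixed. Median-of-ratios scaling, which brought that median to -0.01, called 2292 genes upward (37.9%) and 2283 downward (37.7%). The upward share of calls was 50.1% there and 34.7% on the deposited scale. A list is therefore read below against these rates and against the overall median, with counts under the second scaling where they alter the picture. Such lists are described by their counts and medians, with no test of a list. Pearson correlations across genes between the replicates were 0.9986 at E12.5 and 0.9959 at P0, genes not being independent replicates.

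**Figure D1:**
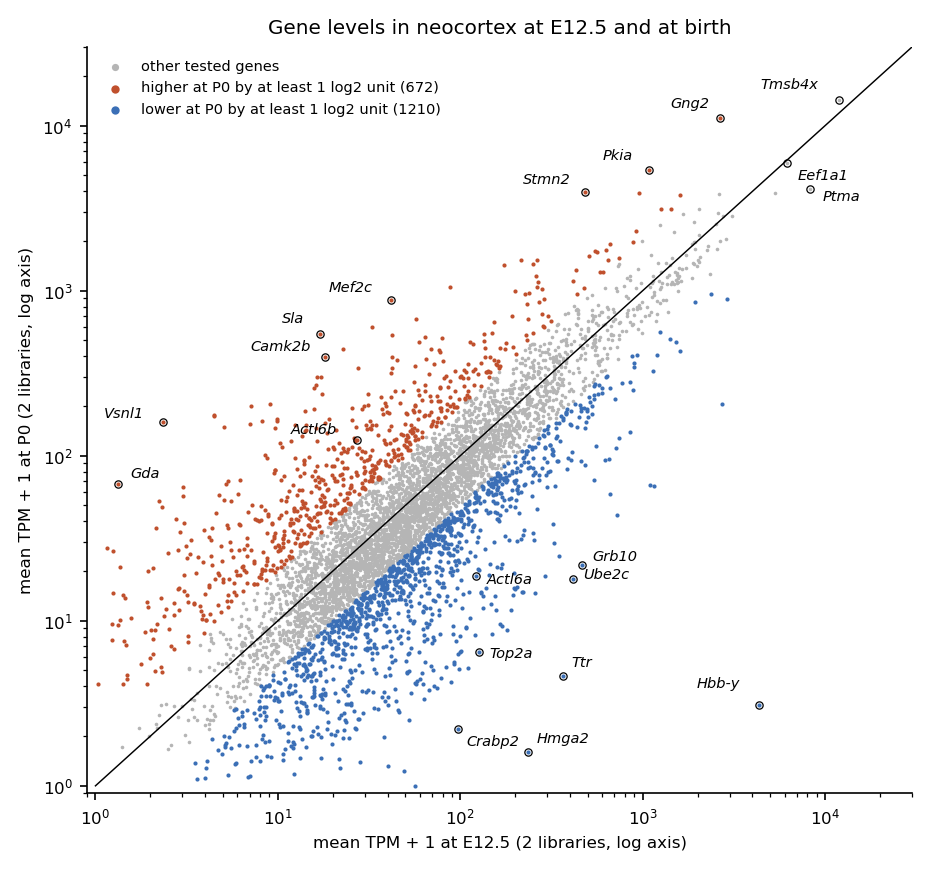
Mean TPM + 1 of each tested gene at E12.5 (x axis) and P0 (y axis), both on log axes, with genes changed by at least 1 log2 unit in colour and a line of equal level. The 672 genes above the line in red and the 1210 below it in blue spread farther from the line than the abundant genes Tmsb4x and Eef1a1, which lie near it.

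The libraries were checked against marker genes of the cells named in the comparison. Postmitotic neuron markers, of which 12 were tested, all rose, and their summed level was 3083 and 3135 TPM at E12.5 against 11967 and 13009 TPM at P0. Of 14 radial glia markers tested, 9 fell and 5 rose. The summed level of the 14 was 2545 and 2565 TPM at E12.5 against 1953 and 2034 TPM at P0. The 9 included Pax6 (log2 change -3.12), Sox2 (-1.81), Nes (-2.93) and Prom1 (-3.40), whereas the 5 that rose were Slc1a3, Glul, Ptprz1, Slc1a2 and Fabp7. Slc1a3, Glul and Slc1a2 are also listed as astrocyte markers. Slc1a3 rose by only 0.22 (limma adjusted p = 0.0484) and lost its call under 14 of 25 alternatives. The 3 genes tested from the intermediate progenitor list, Eomes, Insm1 and Elavl4, all fell. Elavl4 (-0.63) is of the same family as the listed neuron marker Elavl3, so its fall need not be that of progenitors. Astrocyte markers rose in 12 of 14 cases and fell in 2, Aldoc the most (-1.09). Their summed level was 744 and 785 TPM at E12.5 against 997 and 1027 TPM at P0. In whole tissue, fewer cells of a type and less RNA per cell cannot be told apart.

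Markers of other cell types were read as well. The 5 tested erythroid markers summed to 4335 and 4506 TPM at E12.5, nearly all of it the embryonic globin Hbb-y, and to 16.1 and 17.5 TPM at P0. Only 5 of the 15 erythroid genes listed were in the table. The fall of this sum is thus that of Hbb-y and does not measure blood content. Of the 5, 4 fell and Sptb, a spectrin also made in other cells, rose (1.37 and 1.67 TPM at E12.5 and 7.23 and 8.67 TPM at P0). The 11 markers of meninges and fibroblasts, which all fell, summed to 1375 and 1306 TPM against 135 and 121 TPM, and the 3 of choroid plexus to 665 and 516 TPM against 73.5 and 52.2 TPM. The vascular markers tested, Cdh5 and Anxa3, both fell, and the 3 such markers in the table went from 23.4 and 24.96 to 7.02 and 6.56 TPM in sum. The microglial marker C1qb did not pass the test, with 7.96 and 8.23 TPM at E12.5 and 7.81 and 7.07 TPM at P0. One listed oligodendrocyte marker, Cnp, was tested and rose by 0.57. The part of these cells in the results below was not tested. The erythroid sum was 4421, 1939.9 and 18.7 TPM on average at the first 3 stages, the meningeal sum 1341, 1071 and 168 TPM, and the choroid sum 590.2, 1633 and 92.99 TPM.

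**Figure D2:**
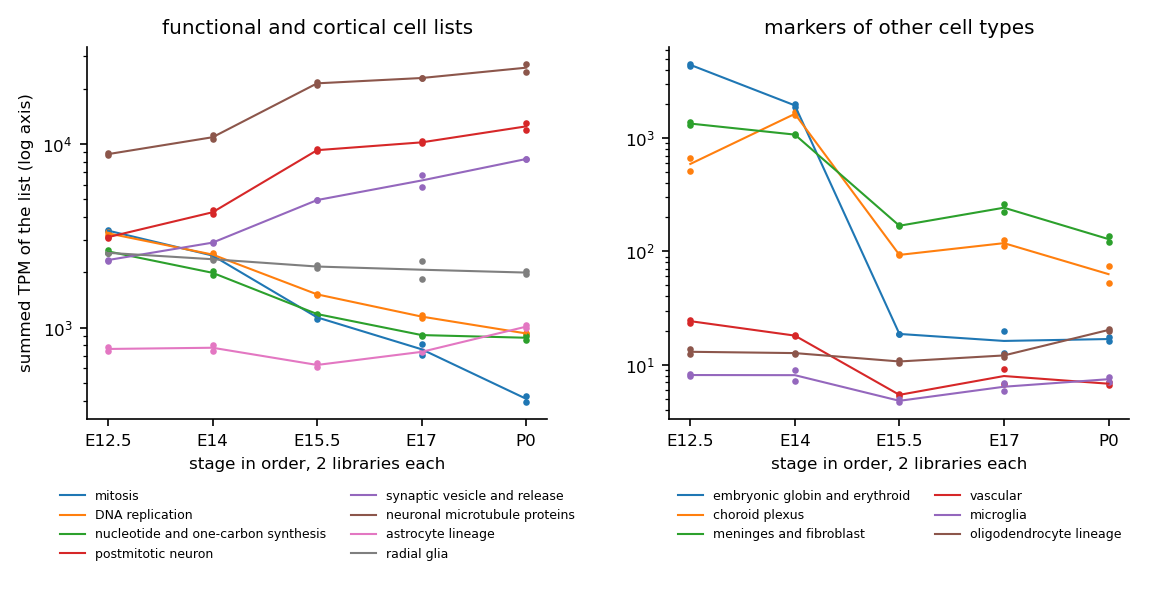
Summed TPM of gene lists at each stage (log axis), with 1 point per library and a line through the means of 2 libraries. Neuronal lists rise and cell-cycle lists fall at each step in the left panel, while in the right panel the erythroid sum goes from 1939.9 TPM at E14 to 18.7 TPM at E15.5.

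The 20 largest rises lay between 4.19 and 6.11 on the log2 scale, with SEs from 0.0790 to 0.151 and adjusted p at or below 1.76e-10. They were chosen among genes whose ages did not overlap, so the gap between the ages is part of the choice. None was a listed marker of blood, vessels, meninges, choroid plexus, microglia or oligodendrocytes. Vsnl1, which encodes the neuronal calcium sensor visinin-like 1 (GRCm38 chr12:11325242-11436613, minus strand), had 1.52 and 1.14 TPM at E12.5 and 154 and 166 TPM at P0, a 120.1-fold rise in mean TPM. Both P0 libraries were thus about 2 orders of magnitude above both E12.5 libraries.

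Of these 20, 4 were on the list of calcium binding and signalling: Vsnl1, Necab1, Hpcal4 and Camk2b. Necab1, an EF-hand calcium-binding protein, had 3.52 and 3.40 TPM at E12.5 and 154.5 and 192 TPM at P0. Hpcal4, a relative of hippocalcin, had 3.77 and 4.33 TPM at E12.5 and 149 and 147 TPM at P0. Camk2b, the beta subunit of the calmodulin-dependent kinase CaMKII, had 16.6 and 17.7 TPM at E12.5 and 389 and 404 TPM at P0. The replicates of Necab1 at P0 lay farther apart than those of Hpcal4 or Camk2b. Among the others, Ptk2b, a calcium-regulated tyrosine kinase, went from 0.214 and 0.286 to 24.3 and 26.3 TPM. Prkar1b, a regulatory subunit of protein kinase A (PKA) enriched in brain, rose 20.4-fold to 451 and 434 TPM, and Akap7, which anchors that kinase, rose 25.3-fold to 197 and 211 TPM.

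Adap1, a GTPase-activating protein for the GTPase ARF6 that is abundant in neurons, had 3.23 and 3.73 TPM at E12.5 and 188 and 162 TPM at P0. The small GTPase Rac3 reached 632 and 565 TPM from 30.1 and 33.6, and Diras2, another, reached 196 and 202 TPM from 5.25 and 6.99. Rgs7 and Rgs6, which shorten G protein signals, rose 35.8-fold and 27.9-fold in mean TPM. Sla, a Src-like adaptor, had 15.3 and 16.5 TPM at E12.5 and 514 and 582 TPM at P0, and Gda, a guanine deaminase that binds a postsynaptic scaffold, went from 0.238 and 0.406 to 59.6 and 72.5 TPM. Its fold of mean TPM, 205, was the largest among the 20, from a level below 1 TPM.

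The remaining rises were of diverse function. Gabra5, a GABA-A receptor subunit, had 1.89 and 2.12 TPM at E12.5 and 65.2 and 62.7 TPM at P0. Mef2c, a transcription factor of maturing cortical neurons, had 43.3 and 37.98 TPM at E12.5 and 763 and 981 TPM at P0 and was the most abundant of the 20 at P0. Dync1i1, an intermediate chain of the motor dynein, had 5.66 and 6.38 TPM at E12.5 and 147 and 162 TPM at P0. Fabp3, a fatty acid binding protein, had 7.42 and 6.89 TPM at E12.5 and 169.7 and 151 TPM at P0. Of the 20, 2 were astrocyte markers. Slc6a11, the GABA transporter GAT3 of astrocytes, had 0.982 and 1.45 TPM at E12.5 and 54.6 and 49.3 TPM at P0, and Gfap, the intermediate filament of astrocytes, had 0.114 and 0.195 TPM at E12.5 and 27.7 and 25.5 TPM at P0. Gfap was at 1.89 TPM on average at E17, and its largest step was the last.

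Of the 20 largest falls, 8 were markers of blood, choroid plexus or meninges. Hbb-y had 4268 and 4429 TPM at E12.5 and 2.31 and 1.88 TPM at P0, and Hbb-bh1, the other embryonic beta-like globin in the table, was at 49.98 and 61.2 TPM at E12.5 and listed at 0 in both P0 libraries. Ttr, made in choroid plexus, had 438 and 293 TPM at E12.5 and 4.35 and 2.93 TPM at P0, but stood higher still at E14, at 1435 TPM on average. Crabp2, Col3a1, Lum, Col1a2 and Dcn, genes of meningeal fibroblasts, were between 26.8 and 27.5 TPM (Col1a2) and 98.3 and 94.4 TPM (Crabp2) at E12.5. At P0 each of these 5 was below 1.5 TPM in both libraries, and each had already dropped to below 2.5 TPM on average by E15.5.

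Of the other 12 large falls, 3 were on the mitosis list (Bub1b, Ccnb1 and Ect2), and Hmga2 and Eomes were markers of radial glia and of intermediate progenitors. Hmga2, a chromatin protein of early progenitors (GRCm38 chr10:120361275-120476469, minus strand), had 247 and 222 TPM at E12.5 and 0.637 and 0.580 TPM at P0, which is 385-fold lower in the mean. Sox3, a transcription factor of neural progenitors, had 69.9 and 78.1 TPM at E12.5 and 3.10 and 2.68 TPM at P0, and Eomes, the transcription factor that defines intermediate progenitors, had 163 and 172 TPM at E12.5 and 8.28 and 8.20 TPM at P0. Eomes did not drop between E12.5 and E14 (168 TPM on average), whereas Sox3 was already lower at E14 (45.9 TPM). Grb10, an imprinted adaptor that restrains growth factor signals, had 454 and 470.3 TPM at E12.5 and 19.6 and 21.9 TPM at P0, and Msrb3, a methionine sulfoxide reductase, had 98.5 and 96.2 TPM at E12.5 and 4.74 and 3.53 TPM at P0.

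The cell-cycle genes in that group act at successive phases. Tk1, the thymidine kinase of S phase, had 107 and 112 TPM at E12.5 and 3.70 and 4.58 TPM at P0. Uhrf1, which maintains DNA methylation during replication, had 84.5 and 92.6 TPM at E12.5 and 3.09 and 3.45 TPM at P0. Top2a, the topoisomerase that separates sister chromatids, had 124 and 127 TPM at E12.5 and 4.62 and 6.33 TPM at P0. All 3 were at least 20-fold lower in mean TPM at P0. Ccnb1, the mitotic cyclin, had 178 and 181 TPM at E12.5 and 7.71 and 7.97 TPM at P0, and Bub1b, of the spindle checkpoint, had 49.6 and 53.7 TPM at E12.5 and 1.28 and 1.70 TPM at P0. Ube2c, the ubiquitin-conjugating enzyme of the anaphase-promoting complex, had 419.8 and 407 TPM at E12.5 and 17.3 and 16.7 TPM at P0, and Ect2, which drives cytokinesis, had 62.5 and 61.4 TPM at E12.5 and 2.21 and 2.48 TPM at P0. The P0 levels of these 4 ranged from 1.28 and 1.70 TPM (Bub1b) to 17.3 and 16.7 TPM (Ube2c).

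**Figure D3:**
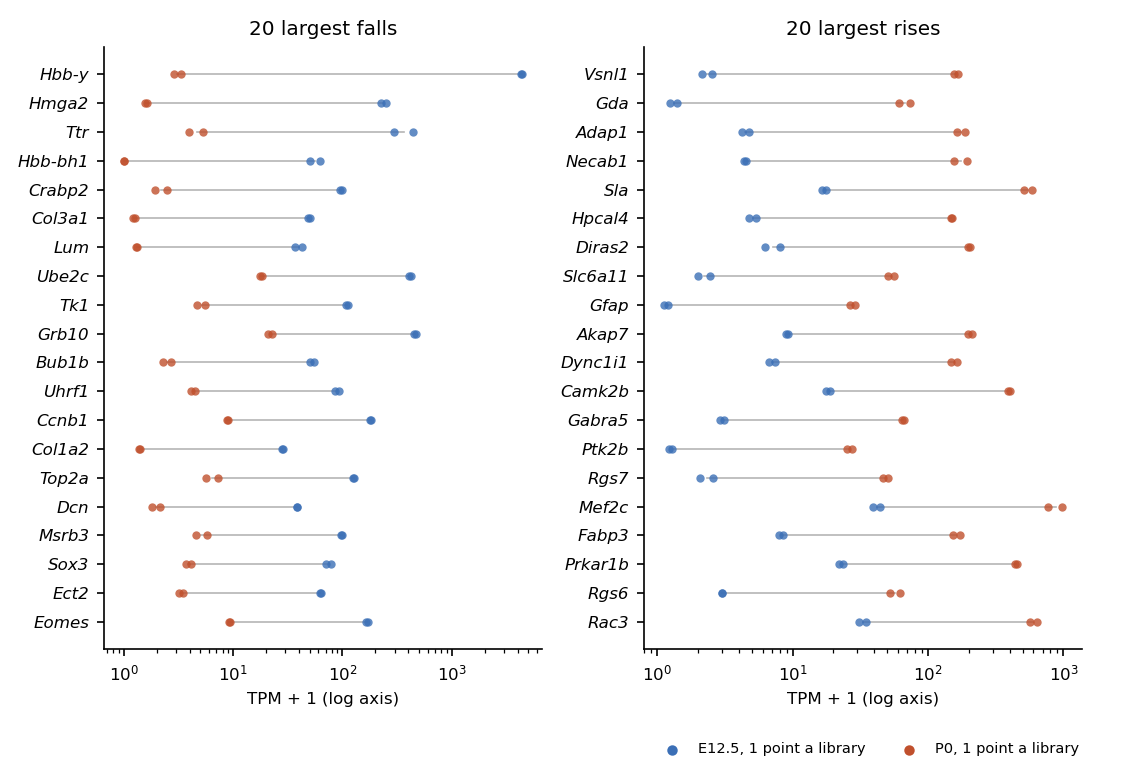
TPM + 1 (log axis) of the 20 largest falls and the 20 largest rises, with 1 point for each library of E12.5 (blue) and P0 (red) and a line between the means. Genes were chosen with no overlap between the ages, and Hbb-y and Vsnl1 have the largest changes.

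Taken as lists, genes of cell division fell almost without exception. All 42 mitosis genes tested fell, with a median change of -3.50 against -0.27 over all genes, and 38 fell by at least 1. The 4 that fell by less were Mad1l1 (-0.90), a checkpoint protein, Cdc27 (-0.97) and Anapc1 (-0.98), of the anaphase-promoting complex, and Ckap5 (-0.98), which extends microtubules. Of 42 DNA replication genes, 40 fell (median -2.22). The helicase subunits Mcm3 (86.2 and 95.7 TPM at E12.5 and 4.50 and 4.82 TPM at P0) and Mcm2 (78.7 and 86.8 TPM at E12.5 and 3.93 and 4.54 TPM at P0) fell most. The 2 that did not pass the test were the origin recognition subunits Orc4 (42.7 and 39.1 TPM at E12.5 and 38.97 and 41.7 TPM at P0) and Orc5 (20.6 and 18.9 TPM at E12.5 and 18.3 and 16.8 TPM at P0). Under median-of-ratios scaling Orc4 was called higher, with 40 replication and 42 mitosis genes called lower.

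Chromosome structure genes fell more unevenly. All 19 condensin and cohesin genes fell, with a median of -1.21. The condensin I subunits Ncapg and Ncaph fell by 3.60 and 3.53, while the cohesin core subunit Smc3 fell by 0.999 and Smc6, of a related repair complex, by 0.52. Smc6 lost its call under median-of-ratios scaling. Nucleotide and one-carbon synthesis fell in 23 of 25 genes (median -1.45), or in 21 after median-of-ratios scaling, led by Tyms, thymidylate synthase (106 and 107 TPM at E12.5 and 7.86 and 8.25 TPM at P0), and the ribonucleotide reductase subunit Rrm1 (124.9 and 134 TPM at E12.5 and 12.1 and 15.2 TPM at P0). Adss, an enzyme of AMP synthesis, was the one that rose (96.1 and 92.6 TPM at E12.5 and 138 and 142 TPM at P0), and Dhodh did not pass the test (18.5 and 17.9 TPM at E12.5 and 19.2 and 18.1 TPM at P0).

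Since these lists fell together, the promoters of their genes were read. The 250 bases before the annotated start were taken from RefSeq (GRCm38.p6), 1 window for each of 4769 of the 6048 genes, matched by symbol. Motifs were searched on both strands: the E2F sites TTTCCCGC, TTTCGCGC, TTTGCCGC and TTTGGCGC, the cell cycle homology region (CHR) TTTGAA, and the CCAAT box CCAAT. As background, E2F factors drive genes of S phase, the CHR recruits the complexes that restrict G2 and M phase genes to dividing cells, and CCAAT is bound by NF-Y. Neighbouring E2F matches on opposite strands can share bases, and different motifs shared bases in 8 windows. An E2F word was present in 3.92% of all windows, a CHR in 10.002% and a CCAAT box in 35.9%. Among 34 replication windows the shares were 20.6%, 14.7% and 50%, and among 36 mitosis windows 5.56%, 30.6% and 61.1%. The 15 condensin and cohesin windows had 26.7%, 40% and 40%. Lists of other kinds also exceeded the overall shares: a CHR was in 17.2% of 29 synaptic vesicle windows, above the replication list, and in 14.3% of 42 of mitochondrial ribosomal proteins, and a CCAAT box in 47.6% of 21 matrix windows. A match is a description of letters, not evidence of binding, and these shares were not tested.

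The windows below show how the motifs lie. Ect2, Kif11 and Cdk1 are mitosis genes with large falls that hold both a CHR and a CCAAT box, Mcm5 and Mcm6 replication genes with large falls that hold an E2F word, and Vsnl1, the largest rise, is given beside them. Each is printed 5′ to 3′ on the strand of its gene and ends at the last base before the start. Capitals mark the motif letters on either strand, so TTCAAA is a CHR read from the other strand, and ATTGG is the box named above read the same way.
Ect2 (chr3:27153879-27154128, minus strand): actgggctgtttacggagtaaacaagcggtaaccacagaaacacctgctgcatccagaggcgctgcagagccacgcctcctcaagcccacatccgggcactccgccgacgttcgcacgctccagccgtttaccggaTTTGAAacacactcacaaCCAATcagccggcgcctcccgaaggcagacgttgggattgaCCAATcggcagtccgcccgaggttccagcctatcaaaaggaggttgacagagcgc
Kif11 (chr19:37376132-37376381, plus strand): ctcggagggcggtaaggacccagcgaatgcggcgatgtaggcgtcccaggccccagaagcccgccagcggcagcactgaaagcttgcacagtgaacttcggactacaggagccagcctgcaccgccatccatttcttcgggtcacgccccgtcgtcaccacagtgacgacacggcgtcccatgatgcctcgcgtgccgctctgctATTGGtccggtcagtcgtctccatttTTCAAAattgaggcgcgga
Cdk1 (chr10:69352913-69353162, minus strand): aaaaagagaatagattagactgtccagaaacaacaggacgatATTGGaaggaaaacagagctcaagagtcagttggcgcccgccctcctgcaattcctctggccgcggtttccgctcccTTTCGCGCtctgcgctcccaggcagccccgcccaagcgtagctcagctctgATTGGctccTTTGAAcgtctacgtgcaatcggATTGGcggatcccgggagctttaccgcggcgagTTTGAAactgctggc
Mcm5 (chr8:75109259-75109508, plus strand): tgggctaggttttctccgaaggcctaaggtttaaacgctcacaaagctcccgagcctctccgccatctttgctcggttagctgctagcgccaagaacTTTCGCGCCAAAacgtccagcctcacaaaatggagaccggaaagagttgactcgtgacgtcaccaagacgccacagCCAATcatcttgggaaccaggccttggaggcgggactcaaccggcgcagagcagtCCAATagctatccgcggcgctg
Mcm6 (chr1:128359706-128359955, minus strand): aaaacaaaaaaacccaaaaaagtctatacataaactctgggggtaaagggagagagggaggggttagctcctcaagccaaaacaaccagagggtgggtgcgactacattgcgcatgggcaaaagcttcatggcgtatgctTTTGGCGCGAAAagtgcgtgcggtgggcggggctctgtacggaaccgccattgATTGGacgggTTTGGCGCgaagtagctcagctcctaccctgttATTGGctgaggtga
Vsnl1 (chr12:11436579-11436828, minus strand): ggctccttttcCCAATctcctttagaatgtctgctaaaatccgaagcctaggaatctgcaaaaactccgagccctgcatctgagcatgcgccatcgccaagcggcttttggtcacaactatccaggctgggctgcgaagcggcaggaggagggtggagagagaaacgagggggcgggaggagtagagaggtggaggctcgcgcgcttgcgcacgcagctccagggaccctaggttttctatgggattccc

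In Ect2 the CHR begins 114 bases before the start and CCAAT boxes follow at 96 and 55 bases. Kif11, the spindle motor Eg5, has its CHR 19 bases before the start and 1 CCAAT box at 45 bases, both on the other strand. Cdk1, the kinase that drives mitosis, holds CHRs at 71 and 15 bases, CCAAT boxes at 208, 80 and 48 bases and an E2F word at 131 bases. Its level was 193 and 196 TPM at E12.5 and 14.1 and 12.46 TPM at P0. Kif11 had 62.9 and 60.7 TPM at E12.5 and 2.95 and 3.35 TPM at P0. Mcm5, another subunit of the replicative helicase, has a pair of overlapping E2F words on opposite strands, at 153 and 149 bases, and had 95.4 and 102 TPM at E12.5 and 7.08 and 7.003 TPM at P0. Mcm6 has such a pair at 110 and 106 bases and a further E2F word at 47 bases, and had 98.6 and 107 TPM at E12.5 and 12.8 and 14.3 TPM at P0. The Vsnl1 window holds 1 CCAAT box, at 239 bases, and no E2F or CHR letters.

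Lists of general gene expression machinery were lower by smaller amounts. Of 39 spliceosome core genes, 37 fell (median -0.86), from Lsm2, of the U6 particle (-1.60), to smaller falls such as that of the Prp19 complex ubiquitin ligase Prpf19 (-0.33), and 33 still did under median-of-ratios scaling. Ribosome biogenesis genes fell in 30 of 40 cases (median -0.53), and in 21 under that scaling. Dkc1, the pseudouridine synthase of box H/ACA particles, fell most (-1.56). Lists of the proteasome, of mitochondrial ribosomal proteins and of the chaperonin CCT had medians of -0.37, -0.40 and -0.35, close to that of all genes. Their falls called, 25 of 34, 35 of 50 and 7 of 7, shrank to 8, 14 and 1 under median-of-ratios scaling, so these lists moved with the bulk of the table. Aminoacyl-tRNA synthetases, 22 tested, gave 4 rises and 11 falls, and 8 and 9 after scaling. Cytosolic ribosomal proteins behaved like the proteasome list, with 37 of 66 falls on the deposited scale and 6 falls and 2 rises after scaling.

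**Figure D4:**
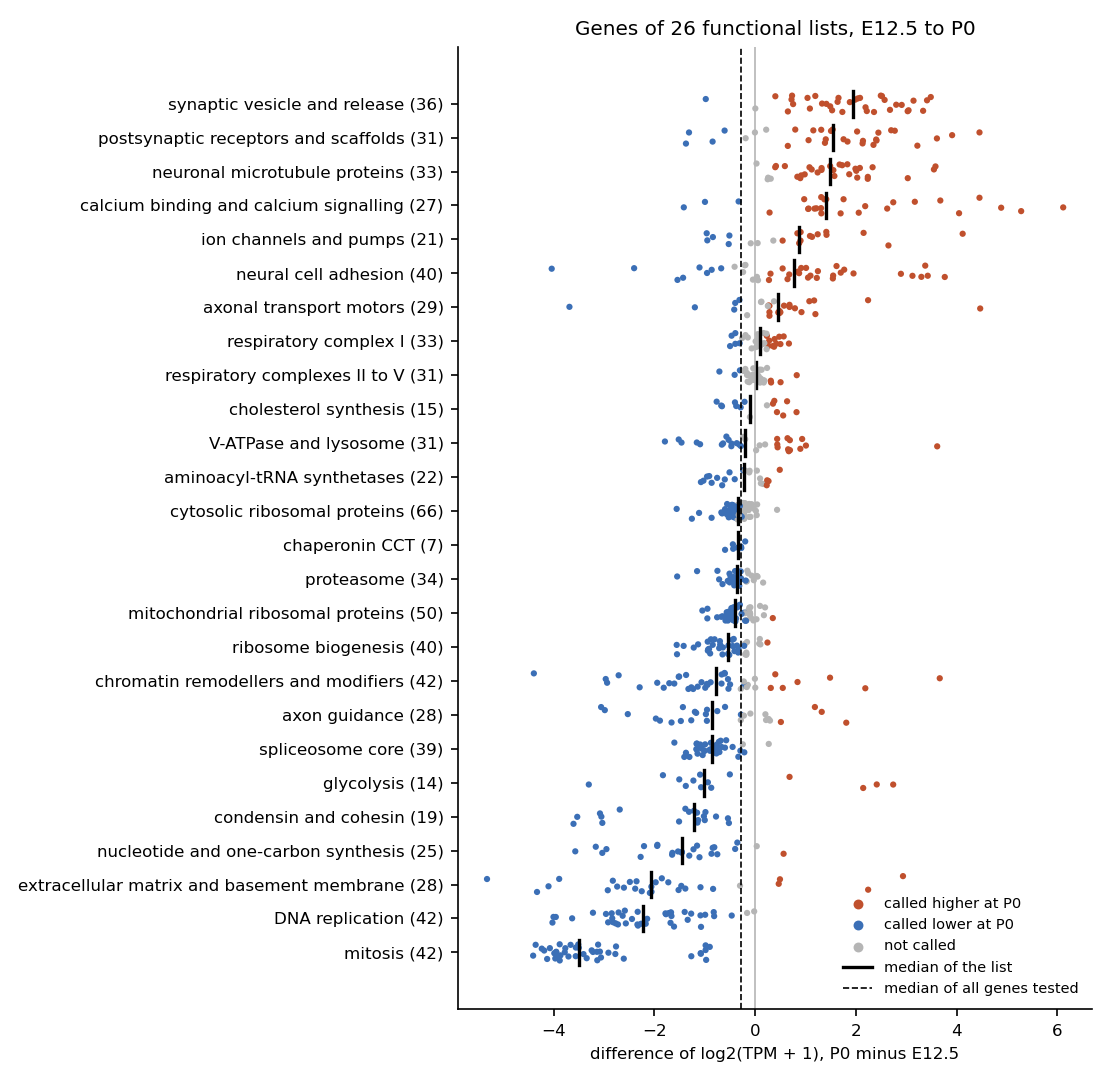
Difference of log2(TPM + 1), P0 minus E12.5, for the tested genes of 26 functional lists (number tested in brackets), coloured by call, with the median of each list as a bar and the median of all genes as a dashed line. List medians run from -3.50 for mitosis to 1.93 for synaptic vesicle and release.

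Chromatin genes divided. Of 42 remodellers and modifiers, 29 fell and 7 rose (median -0.77), or 26 and 9 after median-of-ratios scaling. Those that fell included Uhrf1, the polycomb methyltransferase Ezh2 (121 and 119 TPM at E12.5 and 21.98 and 25.6 TPM at P0) with its partners Suz12 (-1.81) and Eed (-1.70), and the maintenance methyltransferase Dnmt1 (53.3 and 60.6 TPM at E12.5 and 19.6 and 23.3 TPM at P0). The 7 that rose were Smarcc2, Smarcd3, Mta3, Smarca1, Smarca2, Actl6b and Chd5.

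Energy metabolism did not move as one class. Glycolysis fell in 10 of 14 genes (median -1.01), among them Pkm, pyruvate kinase (848 and 929.9 TPM at E12.5 and 253 and 245 TPM at P0), and Pgk1 (-1.51). The 4 that rose, under both scalings, were Hk1, Pfkm, Pfkp and Eno2, each an isozyme described with its family below. By contrast complex I of the respiratory chain had a median of 0.10, with 11 rises and 5 falls among 33 genes, and 23 rises and no fall after median-of-ratios scaling. Ndufa8 rose most (112 and 114 TPM at E12.5 and 182 and 179.6 TPM at P0) and Ndufc2 fell most (300.2 and 267 TPM at E12.5 and 200.1 and 200.3 TPM at P0). Complexes II to V gave 4 rises and 3 falls among 31 genes, and 16 and 1 after scaling. Cholesterol synthesis was mixed, with 6 rises, such as Mvd (0.82), and 7 falls, such as Idi1 (-0.76), among 15 genes, none of at least 1. After median-of-ratios scaling it had 8 rises and 3 falls, and its median turned from -0.10 to 0.17.

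Neuronal classes rose. Of 36 genes of the synaptic vesicle and its release, 34 rose, 29 of them by at least 1, and the median was 1.93. Rab3b, a GTPase of secretory vesicles, rose most (6.99 and 8.42 TPM at E12.5 and 98.6 and 93.8 TPM at P0), followed by the vesicle protein Rph3a (3.58 and 4.60 TPM at E12.5 and 51.9 and 53.96 TPM at P0). Syt1, the calcium sensor of fast release, had 30.1 and 30.7 TPM at E12.5 and 233 and 236 TPM at P0. Syt11 was the one gene of the list that fell (331 and 335 TPM at E12.5 and 174 and 163 TPM at P0), and Cadps, a priming factor, did not pass the test (27.1 and 27.96 TPM at E12.5 and 25.8 and 29.5 TPM at P0). The ages did not overlap for 35 of the 36 genes, Cadps being the exception. Over all genes tested that share was 90.9%, so the lack of overlap says little about this list.

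Postsynaptic receptors and scaffolds rose in 24 of 31 cases (median 1.54) and fell in 4. The scaffold Dlg2 (PSD-93) had 8.81 and 8.56 TPM at E12.5 and 128 and 163 TPM at P0, the metabotropic receptor Grm5 rose by 3.22 and the NMDA receptor subunit Grin2b by 2.77. The 4 that fell were Homer3 (75.3 and 81.4 TPM at E12.5 and 31.6 and 27.8 TPM at P0), Homer2, Dlg1 and Arhgef2. Calcium binding and signalling genes rose in 24 of 27 cases (median 1.41), from Camk2d (0.29) to Vsnl1. The 3 that fell were Hpcal1 (-0.33) and the chaperones of the endoplasmic reticulum Calr (482 and 511 TPM at E12.5 and 206 and 167 TPM at P0) and Canx (-0.995). Hpcal1 lost its call after median-of-ratios scaling.

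Microtubule proteins of neurons rose in 29 of 33 cases and fell in none (median 1.49), and all 33 rose after scaling. Mapt, the axonal protein tau, had 82.8 and 90.4 TPM at E12.5 and 967 and 1129 TPM at P0, and Stmn2, which regulates microtubule turnover in growth cones, had 483 and 483 TPM at E12.5 and 3953 and 3944 TPM at P0. Motors of axonal transport rose in 19 of 29 cases and fell in 5, with a lower median of 0.46, and after scaling 23 rose and 2 fell. Kif5a, a neuronal kinesin heavy chain, had 28.6 and 30.6 TPM at E12.5 and 135 and 154 TPM at P0, whereas Nde1, a dynein regulator needed by dividing progenitors, had 199 and 209.9 TPM at E12.5 and 15.3 and 14.7 TPM at P0. Ion channels and pumps rose in 13 of 21 cases and fell in 5 (median 0.87). Those that fell included Slc12a2 and Atp1b3, which are taken up with their families below.

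The lists of surface molecules had medians on opposite sides of that of all genes, each with members that moved both ways. In the axon guidance list 17 of 28 genes fell and 4 rose (median -0.85), or 15 and 8 after median-of-ratios scaling. The ephrin Efnb1 had 315 and 327 TPM at E12.5 and 40.98 and 34.7 TPM at P0. The netrin receptor Dcc had 27.3 and 28.9 TPM at E12.5 and 1.94 and 3.61 TPM at P0, and the repellent Slit2 had 15.8 and 16.4 TPM at E12.5 and 1.94 and 1.99 TPM at P0. Sema7a (19.99 and 21.6 TPM at E12.5 and 78.5 and 72.3 TPM at P0), Efnb3 (1.32), Efna5 (14.8 and 15.2 TPM at E12.5 and 33.6 and 37.4 TPM at P0) and Robo2 (0.51) rose. Neural cell adhesion genes, by contrast, rose in 25 of 40 cases and fell in 8 (median 0.76). The 8 that fell were Celsr1 and Celsr2, cadherins of planar polarity, Cdh2, Ctnna1, Ctnnb1 and Ctnnd1, of cadherin junctions, and Alcam and Cntnap2. Celsr1 had 41.8 and 48.6 TPM at E12.5 and 1.84 and 1.78 TPM at P0. The largest rises were of immunoglobulin-type molecules: Opcml (17.4 and 15.4 TPM at E12.5 and 232 and 238 TPM at P0) and Lsamp (10.2 and 11.3 TPM at E12.5 and 111 and 132 TPM at P0) of the IgLON group, Ntm (3.43) of the same group, and Cntn1 (3.86 and 3.36 TPM at E12.5 and 45.5 and 43.1 TPM at P0).

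Extracellular matrix and basement membrane genes fell in 23 of 28 cases (median -2.06), among them the laminin chain Lamc1 (-1.97), the collagen IV chain Col4a1 (-2.92) and the nidogen Nid1 (-2.74). This list shares Col1a1, Col1a2 and Col3a1 with the meningeal markers, whose sum fell 10.5-fold, and the part of meninges and vessels in the list was not tested. The 4 that rose are matrix proteins of the brain itself: Tnr (2.56 and 2.07 TPM at E12.5 and 22.3 and 26.4 TPM at P0), Tnc (1.65 and 1.76 TPM at E12.5 and 12.6 and 10.99 TPM at P0), and the proteoglycans Ncan and Bcan, the last by 0.47. The list of the proton pump V-ATPase and of lysosomal proteins divided by kind, a division made after its values were seen. Of 13 V-ATPase subunits and accessory proteins 11 rose and none fell, led by the neuronal subunit Atp6v1g2 (15.4 and 14.2 TPM at E12.5 and 193 and 191 TPM at P0), and of 18 other lysosomal genes 14 fell, led by the protease Tpp1 (20.4 and 20.3 TPM at E12.5 and 5.53 and 4.84 TPM at P0). After median-of-ratios scaling 13 V-ATPase genes rose and 9 of the other 18 fell, and the median of the whole list turned from -0.20 to 0.08.

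The families were then examined for switches between related members. Of 121 families listed, 112 had 2 or more tested members, 359 genes in all. In 57 of them at least 1 member rose and at least 1 fell, in 35 the calls were all upward and in 20 all downward. With a change of at least 1 required in each direction the first number was 21, and after median-of-ratios scaling it was 49, 47 of them shared. With 78.2% of all genes called, a family with many members will often hold calls both ways, and the count carries no test. The families were also chosen with earlier results of these data known, so the count is not a rate for gene families at large. The member of highest TPM differed between the ages, with both libraries of each age in accord, in 43 families, 26 of them with calls both ways.

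For each of the 57 families the most abundant member that rose was set against the most abundant that fell, so a ratio higher at P0 than at E12.5 is fixed by the choice, and the values below describe its size and timing only. This log2 ratio of TPM + 1 is taken within a library, so a common scaling factor nearly cancels. From the first stage to the last its median over the families was -0.77, -0.39, 0.89, 1.17 and 1.70. Over the same stages the rising member was the more abundant of the pair in 17, 22, 38, 43 and 46 families. In 28 families it was the lower in both E12.5 libraries and the higher in both P0 libraries. An exact permutation test of 2 libraries against 2 cannot give a p below 0.333, so the ratios are given as descriptions beside the calls of each gene.

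Chromatin remodellers held several such pairs. Actl6a, the BAF subunit of dividing cells (GRCm38 chr3:32706298-32726973, plus strand), had 118 and 125.1 TPM at E12.5 and 17.3 and 18.2 TPM at P0, a log2 change of -2.71 (SE 0.09, limma adjusted p = 2.02e-10). Actl6b, its neuronal counterpart (chr5:137553517-137569582, plus strand), had 24.7 and 27.8 TPM at E12.5 and 129 and 117 TPM at P0, which is 2.19 on the same scale (SE 0.11, limma adjusted p = 4.28e-09). Actl6b thus made up 17.8% of the summed TPM of the pair at E12.5 and 87.4% at P0, and it first exceeded Actl6a at E15.5. In the BAF45 subunit, Dpf2 went from 100.02 and 104 to 34.4 and 37.7 TPM and Dpf1, its neuronal relative, from 61.3 and 63.4 to 183 and 162 TPM. Phf10, the BAF45 member typical of progenitors, fell from 75.4 and 78.6 to 46.5 and 48.3 TPM. Among the alternative ATPases of BAF, Smarca4 (BRG1) fell from 92.5 and 105 to 40.2 and 48.7 TPM and Smarca2 (BRM) rose from 16.7 and 16.7 to 44.2 and 53.4 TPM, which brought the pair level. The scaffolds Smarcc1 and Smarcc2 moved apart too, with Smarcc2 at 44.7% of the pair at E12.5 and 70.5% at P0.

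In the NuRD remodeller Chd3 was the ATPase gene of highest TPM at both ages and did not pass the test (125.3 and 129.7 TPM at E12.5 and 122 and 133 TPM at P0). Of the other members, Chd4 had 94.9 and 98.3 TPM at E12.5 and 29.9 and 36.6 TPM at P0, and Chd5, a neuronal relative, had 2.03 and 2.12 TPM at E12.5 and 36.5 and 39.5 TPM at P0. The share of Chd5 in the pair was 2.10% at E12.5 and 53.3% at P0. In the ISWI pair Smarca1 rose and Smarca5 fell, with Smarca1 at 46.1% of the pair at P0, so the order did not change. Lamin genes gave a smaller exchange: Lmnb1 had 406 and 408 TPM at E12.5 and 99.8 and 109 TPM at P0 and Lmna, the lamin of differentiated tissue, had 3.48 and 3.47 TPM at E12.5 and 9.30 and 8.70 TPM at P0, and the B type stayed far above. In 6 families the leading member changed although none rose. Top2a and Top2b both fell, by 4.30 and 0.61, which left Top2b, an isoform not confined to dividing cells, with 93.1% of the pair at P0 against 47.2% at E12.5.

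Among membrane fusion proteins, 3 of 4 SNAP genes rose and Snap23 fell. Snap29, a widely used member and the highest at E12.5, had 96.8 and 91.6 TPM at E12.5 and 103 and 122 TPM at P0. Snap23 had 63.3 and 61.03 TPM at E12.5 and 17.7 and 19.05 TPM at P0, and Snap25, its counterpart at the synapse, had 60.1 and 56.8 TPM at E12.5 and 483 and 496 TPM at P0. The pair of Snap25 and Snap23 was near equal at E12.5 in both libraries, and Snap25 held 96.4% of it at P0. Vamp3 had 407 and 389.6 TPM at E12.5 and 157 and 152 TPM at P0, and Vamp2, synaptobrevin, had 252 and 249.9 TPM at E12.5 and 1499.8 and 1386 TPM at P0. Vamp2 went from 38.7% to 90.3% of that pair. Syt4 rose (64.5 and 63.7 TPM at E12.5 and 394 and 377 TPM at P0) against Syt11, both of them vesicle proteins, and went from 16.1% to 69.6% of that pair.

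**Figure D5:**
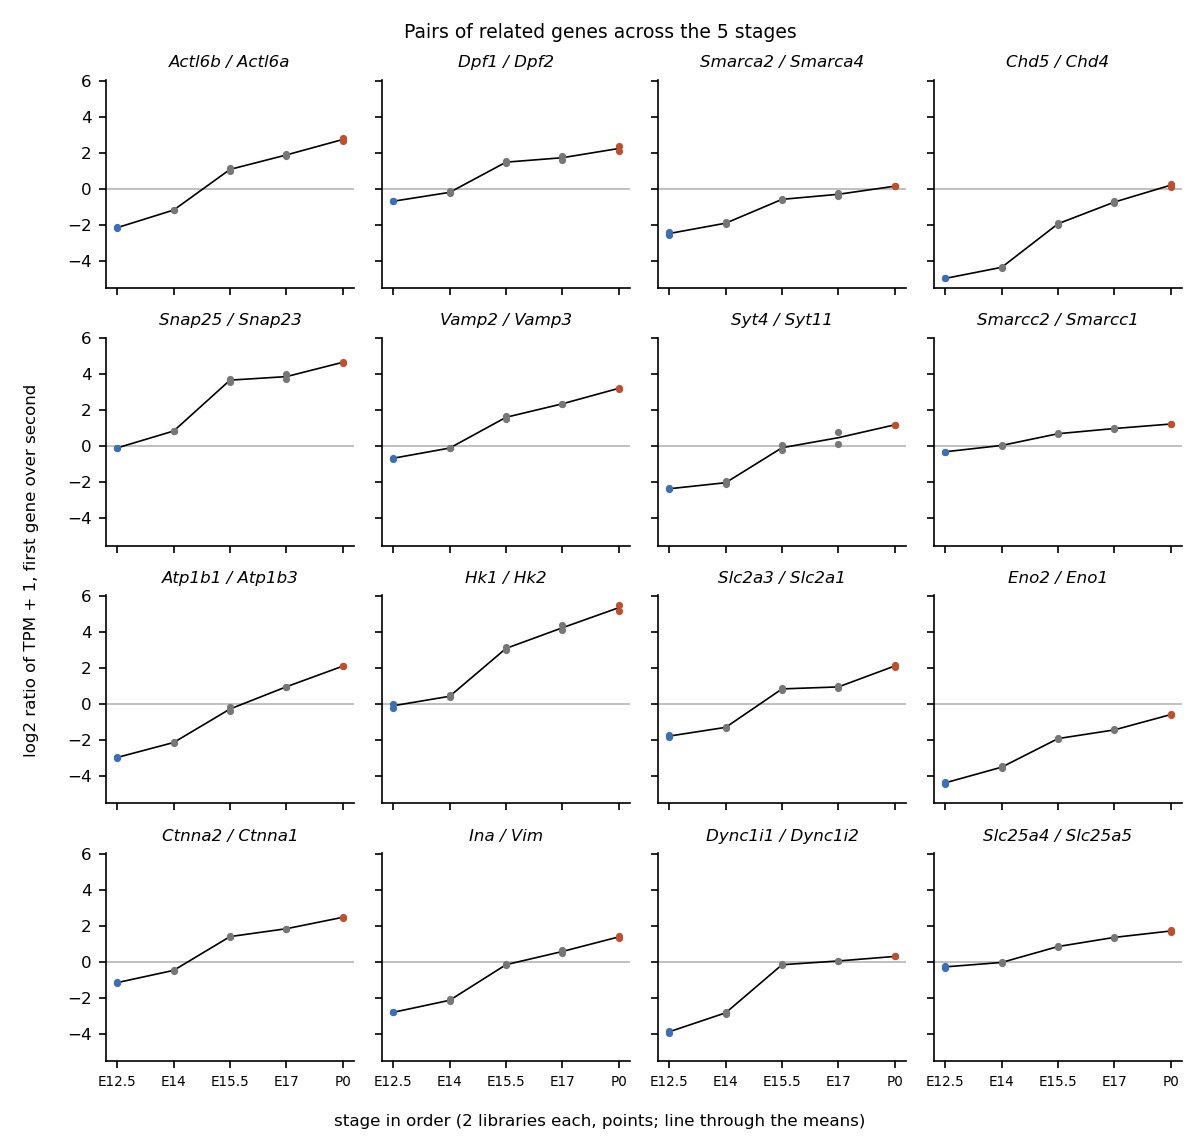
Log2 ratio of TPM + 1 between members of 16 families at the 5 stages, the member that rose over the one that fell (for Dync1i1 over Dync1i2, both rose), with 1 point per library and a line through the means. Ratios above the grey line mean that the first gene is the more abundant, as for Snap25 over Snap23 at every stage from E14, while Eno2 stays below Eno1 at P0.

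Ion pumps and transporters held such pairs too. The sodium pump subunit Atp1b3 had 138 and 129.9 TPM at E12.5 and 73.05 and 64.8 TPM at P0, and Atp1b1 had 16.3 and 16.1 TPM at E12.5 and 316 and 280.3 TPM at P0, a log2 change of 4.12 (SE 0.09, limma adjusted p = 1.90e-11). Atp1b1 was 10.8% of the beta pair at E12.5 and 81.2% at P0. The chloride importer Slc12a2 (NKCC1) fell from 32.6 and 30.96 to 15.95 and 15.7 TPM and the exporter Slc12a5 (KCC2), which makes GABA inhibitory in mature neurons, rose from 0.978 and 0.895 to 12.6 and 9.77 TPM. Slc12a5 remained below Slc12a2 in every library of both ages.

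In some families of glucose use, described here because they had calls both ways, members moved in opposite directions. In lactate dehydrogenase, by contrast, both of the 2 tested members fell. Hk2, the hexokinase of growing tissue, had 20.1 and 20.2 TPM at E12.5 and 1.33 and 0.978 TPM at P0, and Hk1, the main hexokinase of brain, had 17.3 and 20.3 TPM at E12.5 and 83.6 and 88.9 TPM at P0. The share of Hk1 was 48.3% of the pair at E12.5, where the 2 libraries put different members first, and 98.7% at P0. The glucose transporter Slc2a1 (GLUT1), which is also abundant in vessels, had 68.1 and 72.4 TPM at E12.5 and 7.62 and 6.26 TPM at P0, and the neuronal Slc2a3 (GLUT3) had 19.9 and 19.4 TPM at E12.5 and 34.4 and 31.9 TPM at P0. Vascular markers fell along with Slc2a1, and their part in it was not tested. In phosphofructokinase the liver type Pfkl fell from 64.01 and 71.9 to 33.1 and 30.4 TPM, while the muscle type Pfkm rose from 37.2 and 41.8 to 60.1 and 67.9 and the platelet type Pfkp from 2.92 and 2.35 to 25.5 and 21.1. Eno1 fell from 319 and 359.9 to 130.1 and 129.7 TPM and the neuronal enolase Eno2 rose from 15.1 and 15.6 to 84.9 and 86.9 TPM, but Eno1 remained the more abundant in all 4 libraries.

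Enzymes that handle ATP behaved similarly. Ak1, a cytosolic adenylate kinase, had 32.6 and 34.04 TPM at E12.5 and 162 and 143 TPM at P0. Of the carriers that exchange ADP for ATP, Slc25a5 (ANT2) had 521 and 554 TPM at E12.5 and 242 and 224 TPM at P0 and Slc25a4 (ANT1) had 446 and 432 TPM at E12.5 and 751 and 768 TPM at P0, so the order of the pair turned over with a change in both. Ak4 fell (76.5 and 73.8 TPM at E12.5 and 16.4 and 15.7 TPM at P0) and Ak5 rose (0.423 and 0.492 TPM at E12.5 and 13.4 and 12.2 TPM at P0) within the family of Ak1.

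The cytoskeleton and its attachments gave further pairs. Vim, the intermediate filament of radial glia, had 624 and 687 TPM at E12.5 and 95.9 and 92.7 TPM at P0, and Ina, an early neuronal filament, had 88.05 and 96.5 TPM at E12.5 and 243 and 249 TPM at P0. Ina was 12.3% of that pair at E12.5 and 72.3% at P0. Ctnna1, the epithelial alpha catenin, had 71.3 and 77.7 TPM at E12.5 and 12.7 and 13.9 TPM at P0, and Ctnna2, the neural form, had 32.2 and 33.1 TPM at E12.5 and 73.8 and 81.6 TPM at P0. The dynein chain Dync1i1 rose from 5.51% of its pair with Dync1i2 to 55.01%, though Dync1i2 rose as well (0.28). In the MAGUK scaffolds Dlg1 fell from 37.5 and 37.05 to 13.8 and 14.997 TPM and Dlg4 (PSD-95) rose from 64.3 and 69.9 to 235 and 222 TPM.

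The intermediate stages give the share of the change in place at each age sampled. For the 672 genes that rose by at least 1, a median of 15.98% of the log2 change was in place at E14, 62.8% at E15.5 and 84.8% at E17. For the 1210 that fell by at least 1 the values were 16.3%, 59.8% and 70.5%. The stage means moved in one direction at every step in 65.2% of the rising and 64.7% of the falling genes. In both sets the median gene had thus covered most of its change by E15.5. Of the 57 families with calls both ways, the rising member first exceeded the falling one at E15.5 in 16. It did so in 5 families at E14, in another 5 at E17 and in 3 at birth. The step from E14 to E15.5 is also where the erythroid, meningeal and choroid sums fell, from 1939.9, 1071 and 1633 to 18.7, 168 and 92.99 TPM. The erythroid sum at E14 was mostly Hbb-y. A difference in dissection, tissue content or batch between those stages was not tested and cannot be told apart from timing.

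Genes that rose were longer. In the GENCODE M21 annotation the median span from start to end was 48586 bp for the genes that rose by at least 1, 31866 bp for those that fell by at least 1 and 27016 bp for the rest. Spans of 100000 bp or more made up 33.04%, 15.8% and 13.8% of these sets. Median lengths of the longest coding sequence were closer, at 1599, 1688 and 1443 bp. These differences in length were not tested.

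Of the 5 most abundant genes at each age, Tmsb4x, Ptma and Eef1a1 were shared. Tmsb4x, thymosin beta 4, which binds actin monomers, ranked first at both and did not pass the test (12357 and 11614 TPM at E12.5 and 15025 and 13673 TPM at P0). Eef1a1, elongation factor 1 alpha, did not pass it either (5984 and 6446 TPM at E12.5 and 6005 and 5884 TPM at P0). Ptma, prothymosin alpha, a chromatin protein of dividing cells, had 8506 and 7969.9 TPM at E12.5 and 3670.1 and 4630.1 TPM at P0, and Tpt1 had 5416 and 5212 TPM at E12.5 and 4188 and 3686 TPM at P0. Gng2, a gamma subunit of heterotrimeric G proteins, rose to the second rank at P0 (2702 and 2605 TPM at E12.5 and 10489.9 and 11704 TPM at P0), and Pkia, the peptide inhibitor of PKA, to the fourth (1113 and 1051 TPM at E12.5 and 5171 and 5556 TPM at P0). Several of these genes, such as Eef1a1, Ptma and Tpt1, have many processed copies in the genome, and the globin genes resemble each other, so their levels are uncertain where reads fit more than 1 copy. More than 10% of the exon bases of Actl6a, Atp1b1, Ctnnb1, Homer3, Ina, Ncapg, Pfkp, Phf10, Smarcd3, Top2b and Ube2c overlap a coding gene on the opposite strand. Whether strand was used in counting is unstated in the sources used here, so part of their levels may belong to the neighbour.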

How the data were processed

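RNA-seq was compared between E12.5 and P0 neocortex of CD1 wild-type mice, with stages and replicate numbers from the labels. The authors deposited values in TPM, per the file headers, 1 column per library, and 0 columns were left without a sample. The submitters' processing notes name STAR, Subread and GRCm38.p5, without versions or settings of the tools; the gene lengths behind the TPM, the strand setting and the choice of the 6147 rows are unstated in the sources used here. On such a scale a gain by abundant genes is a loss for the rest.

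From these, log2(TPM + 1) was tested for the 6048 genes with a 10-library mean at or above 1 TPM, with limma 3.58.1 in R 4.3.3: 1 mean per stage over all 10 libraries (5 residual degrees of freedom), the contrast P0 minus E12.5, a variance trend and Benjamini-Hochberg adjustment, called under 0.05. A change on this scale understates that of low genes. The median SE was 0.107. The fit was tried on simulated data first. Members, lists and families were chosen with earlier results of these data known. The 20 largest rises and falls were taken among called genes that averaged at least 10 TPM over the 4 libraries, had no overlap between ages and no name beginning with Gm or LOC or ending in Rik. Also named were members of families and lists described, with the highest and lowest of each list, and the 5 most abundant genes per age. Genes singled out otherwise were chosen after their values were seen. Alternatives covered pseudocounts, filters, scalings, the samples in the fit, weights, thresholds and each library left out. Positions came from GENCODE M21 for GRCm38 by gene identifier (6146 of 6147 genes). Tables were made in Python 3.11.15 (pandas 2.3.3, numpy 2.4.6), figures with matplotlib 3.10.9. A few genes of the lists and families are not reported here.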

Additional observations from a re-analysis of the deposited data

How the results depend on the processing

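Requiring a change of at least 1 left 1882 of the 4728 calls, 672 higher and 1210 lower, and 21 of 57 families with calls in both directions. Under the other alternatives these 4 counts stayed within 1.5 times their values. With each library left out in turn, calls ranged from 4218 to 5132, higher genes from 1439 to 1800, lower genes from 2723 to 3332 and families from 50 to 59. Quantile normalization called 2214 genes upward and 2419 downward, an upward share of 47.8%. Of 190 named genes called, 141 kept their call in every setting and 37 lost it only when a change of at least 1 was required. Over the 25 settings Slc1a3 lost its call in 14, Tpt1, Hpcal1 and Camk2d in 6 each, Bcan and Snap29 in 4 each, and Smc6, Smarcc2 and Ncan in 3 each. Genes near 0 changed sign. Median-of-ratios scaling put C1qb at 0.14, Eef1a1 at 0.21, Orc4 at 0.25 and Orc5 at 0.10, quantile normalization put C1qb at 0.41 (called higher), Orc4 at 0.23, Orc5 at 0.18 and Tmsb4x at 0, and rescaling without globin genes put Orc4 at 0.0055. Without 1 library at a time Chd3 ranged from -0.058 to 0.064, Cadps ranged from -0.091 to 0.0997, Dhodh from -0.0079 to 0.072 and Orc4 from -0.082 to 0.044. The replicate block, with the replicate number in the model, gave 4676 calls, 1624 higher and 3052 lower, and 57 families. The numbers share no source in the labels, and the differences between replicates correlated by -0.14 between E12.5 and P0, so they were not treated as pairs; with the numbers of E12.5 crossed, a choice made after seeing the data, there were 4786 calls. Depth is unknown, and 2 libraries per age limit the precision. Replicates differed most at E17, a stage that enters the shared estimate of spread and the timing. The SD across genes of their log2 difference was 0.285 at E17 and 0.176 at P0. It was 0.097 at E12.5, 0.108 at E14 and 0.088 at E15.5.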

Other observations

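Signalling families outside those described above also held members with calls in both directions. Among protein kinase C genes Prkci, the atypical form of apical polarity, fell (56.6 and 56.7 TPM at E12.5 and 29.97 and 38.97 TPM at P0) and Prkce rose (28.1 and 27.6 TPM at E12.5 and 181 and 204 TPM at P0). Among G protein alpha subunits Gnai2 fell (495 and 521 TPM at E12.5 and 246 and 209 TPM at P0) and Gnao1, the abundant alpha subunit of neurons, rose (271 and 292 TPM at E12.5 and 608 and 614 TPM at P0), from 35.6% to 72.9% of the pair. Rhoa, which drives contraction, fell (569 and 574 TPM at E12.5 and 366 and 358 TPM at P0) while Rhob rose (174 and 182 TPM at E12.5 and 477 and 487 TPM at P0). In these 3 pairs the libraries of each gene did not overlap between the ages. The same held for 90.9% of all genes tested, and the pairs were chosen by their calls.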
